A study of Mus musculus with 4 samples.

Results

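The MS4A genes (membrane-spanning 4-domains, subfamily A) encode small proteins that cross the cell membrane several times and associate with other receptors. The 7 members described here are Ms4a8a, Ms4a4a, Ms4a4c, Ms4a6b, Ms4a6c, Ms4a6d and Ms4a7, out of 16739 genes listed in at least 1 library, and all 7 were found by their Entrez identifier. They were chosen by name with their expected counts and FPKM (fragments per kilobase and per 1e6 fragments) in these libraries already known, so their levels and their differences between groups are given as a description, without a test. RNA was sequenced from CD45+ CD11b+ F4/80+ tumor-associated macrophages (TAMs), sorted 16 days after subcutaneous inoculation of B16-F10 melanoma cells, a C57BL/6 line, into C57BL/6 mice aged 6 to 8 weeks. There were 2 libraries from WT littermates and 2 from mice labelled Trim24-/-, in which floxed Trim24 is removed by Cre from the lysozyme M locus, a driver active in macrophages, monocytes and neutrophils. Both groups carried the tumor. How many mice gave each library, and whether the WT littermates carried Cre or floxed alleles, are not given in the sources used here.

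Several members of the family mark one blood lineage each. Ms4a1 encodes CD20 of B cells, and Ms4a2 encodes the beta chain of the high-affinity IgE receptor of mast cells and basophils. In macrophages, MS4A4A is known to sit with the beta-glucan receptor Dectin-1 (Clec7a) in the membrane, and MS4A8A has been described in macrophages activated by IL-4 with glucocorticoid. In the mouse the Ms4a4 and Ms4a6 genes were duplicated into several close copies, which is why their reads need care.

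The library totals were 4476122 to 5172407 expected counts, so that 3 counts, taken as the floor of detection, correspond to 0.606 to 0.639 CPM (counts per 1e6, scaled by edgeR's TMM factors). This floor covers counting error only. Trim24 was at 5.86 and 2.08 CPM in WT TAMs and at 3.41 and 0.411 CPM in those labelled Trim24-deficient. The groups overlapped, so the transcript does not separate the labels, and the latter are called the deficient-labelled libraries here. Values per gene do not show which exons the reads came from. Xist was at 6.46 to 10.9 CPM in the WT libraries and at 256 to 437 CPM in the others, and the Y-linked Ddx3y was at 73.7 to 102 CPM in WT and at 0.411 to 0.426 CPM in the others, although the study's methods describe sex-matched mice. Genotype and the sex of the mice cannot be told apart here. The defining markers of the sort were present in all libraries. Summed over 9 macrophage genes (Adgre1, Itgam, Ptprc, Csf1r, Cd68, C1qa, C1qb, C1qc and Mrc1), the level was 17534 to 19393 CPM in WT and 19588 to 20924 CPM in the deficient-labelled libraries. In bulk RNA, fewer cells of a type and less RNA per cell cannot be told apart.

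The MS4A genes stood together on chromosome 19, from 10962289 to 11640851 in GRCm38, where RefSeq places 21 MS4A genes. In TAMs only part of this cluster was read out. Of the 21 genes, 12 had a value in any library and 9 had none (Ms4a2, Ms4a3, Ms4a5, Ms4a10, Ms4a12, Ms4a13, Ms4a14, Ms4a19 and Ms4a20), which at this depth allows up to 3 counts each. Of the 12, 5 were not members. Ms4a1 was at 2 to 4 expected counts, Ms4a15 and Ms4a18 at 1 count in 1 library each, and Ms4a4d at 0 to 4.08 counts, all at or near the floor. The fifth was Ms4a4b, at 20.1 to 55.4 CPM. Per length, 6 members had a mean of 297 to 564 FPKM over the 4 libraries, and each of these 6 ranked among the 500 most abundant genes in every library. Ms4a8a, at 3.45 to 23.2 FPKM, ranked between 3274 and 8833.

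**Figure D1:**
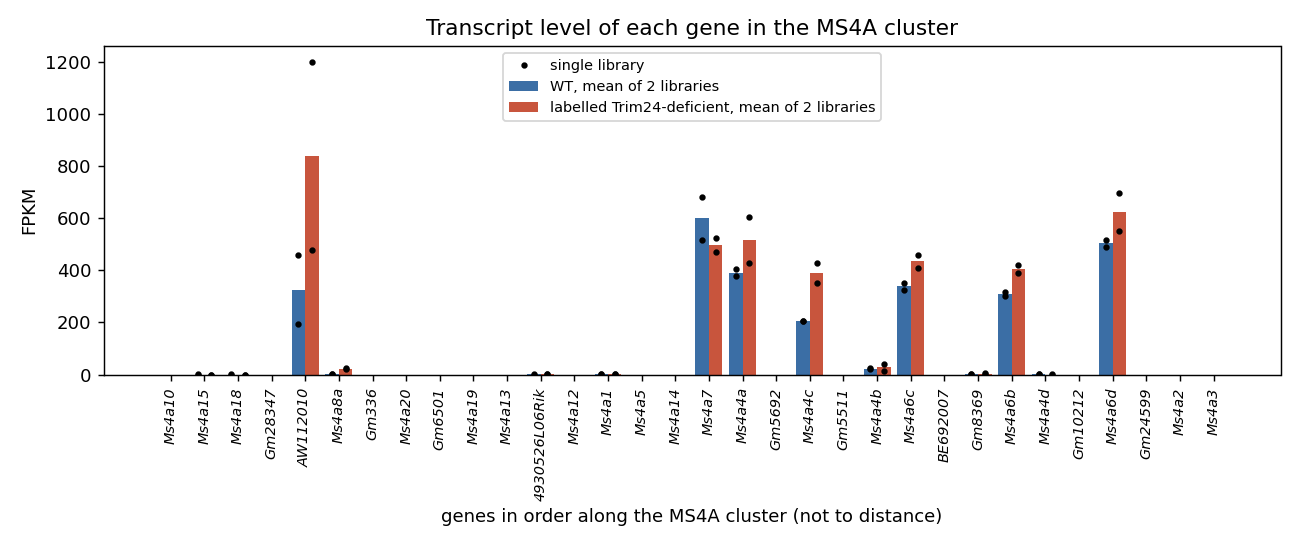
Mean FPKM in WT TAMs (blue, n = 2) and in deficient-labelled TAMs (red, n = 2) for the MS4A genes of the cluster and the other genes among them, in chromosome order, with single libraries as points. The high values fall on 6 MS4A genes between Ms4a7 and Ms4a6d and on the non-coding AW112010, while 9 MS4A genes have no value in any library.

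In WT TAMs the order of level was the same in both libraries. Ms4a7, a member found in mature macrophages, was at 517 and 680 FPKM. Ms4a6d followed at 489 and 516 FPKM, and the difference of their means was within the SD of Ms4a7. Ms4a4a was at 405 and 377 FPKM, Ms4a6c at 325 and 352 FPKM, Ms4a6b at 301 and 317 FPKM and Ms4a4c at 205 and 206 FPKM, and each of these steps was larger than the SD of either gene. Ms4a8a stood far below, at 3.58 and 3.45 FPKM. In the deficient-labelled libraries the order was less clear. Ms4a6d was the highest member in both, at 551 and 698 FPKM, and Ms4a7 no longer led, at 470 and 523 FPKM. The neighbours Ms4a6d and Ms4a4a, Ms4a4a and Ms4a7, Ms4a6c and Ms4a6b, and Ms4a6b and Ms4a4c overlapped between libraries. Ordering by counts per kilobase instead of FPKM gave the same ranks of the 7 means.

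The composition of the family differed between the labels for some members. Shares sum to 100%, so a higher share of one gene lowers those of others. The shares of Ms4a4a and Ms4a6c overlapped between the labels. Those of Ms4a6b were 13.4% and 12.9% in WT and 14.2% and 13.8% in the deficient-labelled libraries. Of the summed FPKM of the 7 genes, Ms4a7 made up 23.0% and 27.7% in WT and 17.1% and 17.3% in the deficient-labelled libraries. Ms4a4c made up 9.11% and 8.39% in WT and 15.6% and 11.6% in the others. The share of Ms4a8a was 0.159% and 0.141% in WT and 0.846% and 0.707% in the others, and that of Ms4a6d was between 20.1% and 23.1% in all 4 libraries. The sum itself was 2245 and 2451 FPKM in WT and 2746 and 3026 FPKM in the deficient-labelled libraries.

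**Figure D2:**
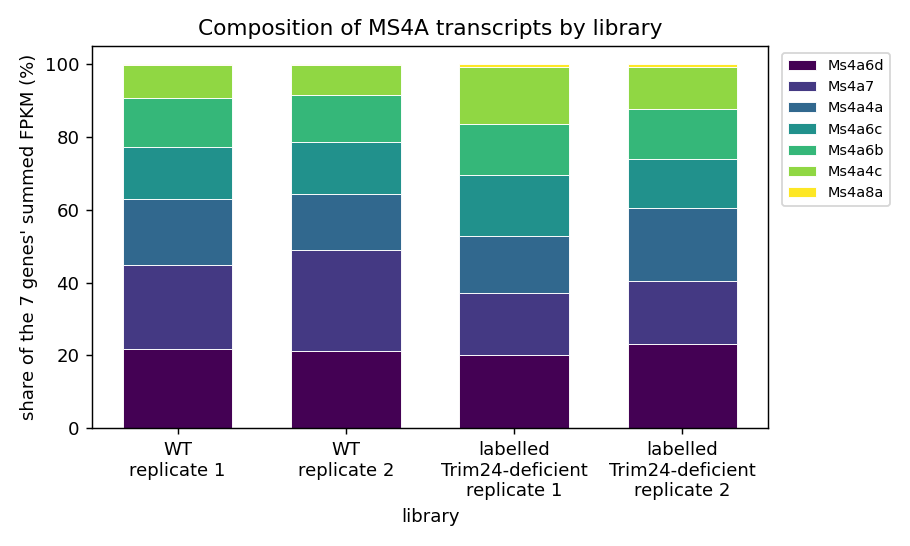
Share of the summed FPKM of the 7 MS4A genes taken by each gene (percent, stacked) in each of the 4 libraries. The share of Ms4a7 is 23.0% and 27.7% in the WT libraries and 17.1% and 17.3% in the others, while that of Ms4a4c is larger in both deficient-labelled libraries.

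The study asked how Stat6 tunes macrophage polarization. The libraries compare TAMs labelled WT with TAMs labelled deficient in Trim24, a ubiquitin ligase of the acetyltransferase CBP. Across all 11302 genes tested with edgeR's quasi-likelihood test, 42 (0.372%) passed a false discovery rate below 0.05 with a fold change above 1.5, and 33 of them (0.292% of genes tested) were higher in the deficient-labelled libraries. All 7 members passed the filter on low counts, with every library above its cutoff of 2.05 CPM. Of the 7, 1 (Ms4a8a) was among the called genes. Both deficient-labelled libraries lay above both WT libraries for 6 of the 7, and 21.4% of all genes tested did the same. The log2 fold change was above 0 for the same 6, and for 49.4% of all genes tested. The median log2 fold change of the 7 was 0.53, against -0.01 for all genes tested. Since the members were listed with these values known, nothing is read from these counts. The number of called members was 3 (Ms4a8a, Ms4a4c and Ms4a4a) without deficient-labelled replicate 1 and 2 (Ms4a8a and Ms4a4c) without replicate 2 of that label, and DESeq2 called 2 (Ms4a8a and Ms4a4c). Over all genes tested, the share called rose as well, to 3.46%, 5.54% and 1.38% in these 3 fits. The members' transcripts were short, 996 to 1723 bases against a median of 2810 for all genes tested. The 1808 genes tested in that range of length had a median log2 fold change of 0.09, and 61.3% of them were above 0. The part of length in the members' values was not tested.

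**Figure D3:**
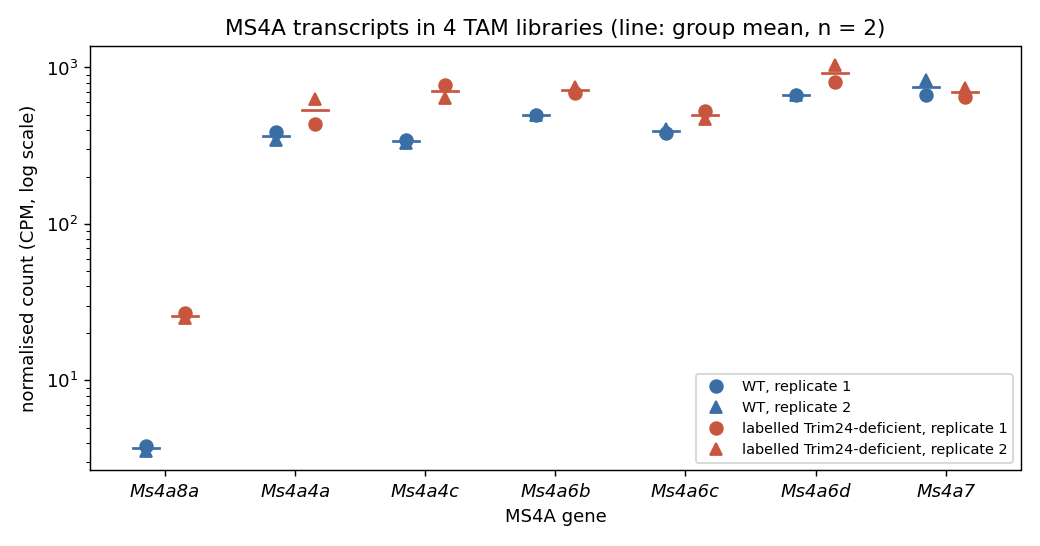
Normalised counts (CPM, log scale) of the 7 MS4A genes in 2 WT libraries (blue) and 2 deficient-labelled libraries (red), with circles for replicate 1, triangles for replicate 2 and a line at each group mean. For Ms4a8a the groups are at 3.54 to 3.84 and 25.1 to 26.8 CPM, and only for Ms4a7 do the groups overlap.

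Ms4a8a (Entrez gene 64381) lies on the minus strand of chromosome 19 from 11067471 to 11081102 and has 7 exons in its longest basic GENCODE transcript. It had 19 and 17 expected counts in WT, and 126 and 122 in the deficient-labelled libraries. On the CPM scale these were 3.84 and 3.54 against 26.8 and 25.1. The libraries of each label lay close together and the labels were far apart. The ratio of the means was 7.03, and between single libraries of the 2 labels it ran from 6.53 to 7.58. The log2 fold change was 2.81 (standard error 0.30). The WT level rested on 36 counts in all, for which the exact Poisson interval at 95% confidence is 25.2 to 49.8 counts, covering counting error only. None of its transcript's 50-base words occurs in another gene of the GENCODE transcript set.

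Ms4a4c and Ms4a4a are close relatives on the plus strand, with the unlisted Gm5692 between them. Ms4a4c (Entrez gene 64380; 11404770 to 11427246, 7 exons) is known as an interferon-inducible gene of myeloid cells and lymphocytes. It was at 343 and 330 CPM in WT and at 771 and 643 CPM in the deficient-labelled libraries. Both of the latter lay above both WT libraries, with a ratio of means of 2.10 and a log2 change of 1.07 (standard error 0.21). Ms4a4a (Entrez gene 666907; 11375523 to 11392790, 7 exons), the Dectin-1 partner, was at 386 and 344 CPM in WT and at 437 and 631 CPM in the others. The libraries did not overlap, but the 2 deficient-labelled ones differed from each other by more than replicate 1 of them differed from the WT libraries. Its log2 fold change was 0.55 (standard error 0.23), which was 0.26 without deficient-labelled replicate 2 and 0.79 without replicate 1. Summing the reads of both genes gave a log2 fold change of 0.82 with a standard error of 0.21. Ms4a4a has no 50-base word in common with another gene, so at that length this sum does not address reads split between copies.

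The Ms4a6 genes are a group of close copies, of which Ms4a6b is also expressed in T cells. Ms4a6b (Entrez gene 69774; 11516512 to 11531256, 8 exons, plus strand) was at 494 and 498 CPM in WT and at 686 and 750 CPM in the deficient-labelled libraries, a log2 fold change of 0.53 with a standard error of 0.20. Ms4a6c (Entrez gene 73656; 11469366 to 11482192, 7 exons, plus strand) was at 379 and 404 CPM in WT and at 529 and 471 CPM in the others, a log2 fold change of 0.35 with a standard error of 0.20. Ms4a6d (Entrez gene 68774; 11586604 to 11604849, 7 exons, minus strand) was at 663 and 671 CPM in WT and at 805 and 1034 CPM in the others, a log2 fold change of 0.46 with a standard error of 0.22, which was 0.27 without deficient-labelled replicate 2 and 0.64 without replicate 1. For each of the 3 the libraries of the 2 labels did not overlap, and the ratios of the means, 1.28 to 1.45, were below the fold change of 1.5 used for calls. GENCODE also places the non-coding BE692007 on the opposite strand within Ms4a6c, and the sources used here do not state whether strand was used in counting.

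Ms4a7 (Entrez gene 109225; 11321039 to 11336146, 7 exons, minus strand) was the member without a separation. It was at 665 and 836 CPM in WT and at 650 and 735 CPM in the deficient-labelled libraries. The groups overlapped, and the log2 fold change of -0.12 (standard error 0.22) was within the spread between libraries, moving to 0.06 without WT replicate 2.

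**Figure D4:**
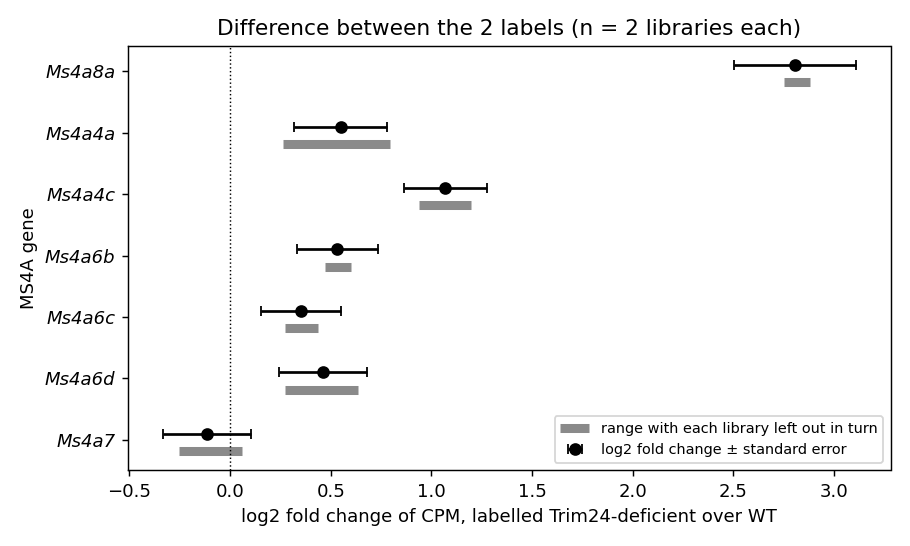
Log2 fold change of CPM (deficient-labelled libraries over WT, n = 2 each) of the 7 MS4A genes with its standard error (points and bars), and the range of the same value with each library left out in turn (grey). Ms4a8a stands at 2.81 and Ms4a4c at 1.07, and the grey range crosses 0 only for Ms4a7.

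Reads of the close copies could be split between them by the authors' counting. Of the 50-base words in the members' GENCODE transcripts, 8.19% of those of Ms4a4c, 10.5% of Ms4a6c, 3.57% of Ms4a6b, 2.54% of Ms4a6d and 0.306% of Ms4a7 also occurred in another gene, and none of those of Ms4a8a and Ms4a4a did. Ms4a4c shared words mainly with Ms4a4b (7.73% of its words), and Ms4a6c with Ms4a6b (5.85%). The summed reads of Ms4a6b, Ms4a6c and Ms4a6d were at 1536 and 1573 CPM in WT and at 2020 and 2255 CPM in the others, a log2 fold change of 0.46 with a standard error of 0.22.

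The likeness of the Ms4a6 copies extended to the DNA before their starts. RefSeq's promoter table (GRCm38.p6) held 6 of the 7 members, all but Ms4a6d. In the 250 bases before the start, 1 of 21 pairs of the 7 windows (Ms4a7 has 2 starts) had an exact run of at least 15 bases in common, that of Ms4a6b (chr19:11518309-11518558, plus strand) and Ms4a6c (chr19:11469118-11469367, plus strand). They are shown because no other pair had such a run, and capitals mark the 2 shared runs, the longer of 48 bases.
Ms4a6b: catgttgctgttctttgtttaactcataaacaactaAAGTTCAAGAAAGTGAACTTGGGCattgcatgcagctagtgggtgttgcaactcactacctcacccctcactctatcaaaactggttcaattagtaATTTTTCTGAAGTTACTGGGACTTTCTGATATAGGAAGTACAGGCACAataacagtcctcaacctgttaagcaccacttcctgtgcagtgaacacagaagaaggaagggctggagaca
Ms4a6c: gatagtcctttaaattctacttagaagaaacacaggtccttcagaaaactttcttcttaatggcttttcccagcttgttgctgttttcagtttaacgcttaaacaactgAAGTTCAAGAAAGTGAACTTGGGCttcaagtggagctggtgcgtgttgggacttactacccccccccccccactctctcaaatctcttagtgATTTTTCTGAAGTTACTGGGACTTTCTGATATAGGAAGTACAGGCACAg
The longer run stops 1 base short of the end of the window of Ms4a6c and lies farther upstream in that of Ms4a6b, whose RefSeq start lies inside the GENCODE gene.

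The promoters of the members with the largest difference and of the member without one are shown for comparison, with capitals for matches to 5 short motifs searched on both strands. These were the palindrome bound by STAT6, TTC and GAA with 4 bases between them (in 5.85% of 32851 promoters of the same length), the interferon response element, GAAA repeated after 2 bases (2.98%), the AP-1 site TGANTCA (6.75%), the ETS core GAGGAA recognised by the macrophage factor PU.1 (23.3%) and the TATA box TATAAA (12.4%). Windows are chr19:11081104-11081353 (minus strand) for Ms4a8a, chr19:11407411-11407660 (plus strand) for Ms4a4c and chr19:11336147-11336396 (minus strand) for the first of 2 starts of Ms4a7.
Ms4a8a: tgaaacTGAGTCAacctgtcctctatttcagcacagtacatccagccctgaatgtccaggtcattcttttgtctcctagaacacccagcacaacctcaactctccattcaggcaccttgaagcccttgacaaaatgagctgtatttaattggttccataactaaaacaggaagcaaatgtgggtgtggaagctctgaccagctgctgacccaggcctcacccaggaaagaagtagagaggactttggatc
Ms4a4c: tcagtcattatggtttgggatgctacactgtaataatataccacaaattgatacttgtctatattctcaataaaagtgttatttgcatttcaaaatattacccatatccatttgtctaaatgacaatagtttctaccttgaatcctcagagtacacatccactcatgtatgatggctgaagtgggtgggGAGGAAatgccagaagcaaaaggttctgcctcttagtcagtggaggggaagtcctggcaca
Ms4a7: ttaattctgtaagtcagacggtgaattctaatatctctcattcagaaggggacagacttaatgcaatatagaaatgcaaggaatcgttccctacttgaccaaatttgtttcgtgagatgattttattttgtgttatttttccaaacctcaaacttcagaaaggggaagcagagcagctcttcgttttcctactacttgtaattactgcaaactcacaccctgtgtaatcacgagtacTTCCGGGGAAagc
Ms4a8a held 1 AP-1 match, 244 bases before its start, and Ms4a4c 1 ETS core, 61 bases before the start that RefSeq gives, which lies inside the GENCODE gene. The STAT6 palindrome occurred in Ms4a7, 13 bases before its first start, and in none of the other 5 members searched. The second start of Ms4a7 held 1 AP-1 match. Ms4a4a, Ms4a6b and Ms4a6c held none of the 5 motifs. A match of letters describes the window and shows no binding.

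The other family genes with reads gave few values to test. Of 17 further MS4A genes and relatives, 3 were tested and 0 were called by edgeR's quasi-likelihood test, by DESeq2 or by limma on FPKM, while 1 (Tmem176a) had an unadjusted p under 0.05. Ms4a4b, a T cell member that shares the most 50-base words with Ms4a4c, was at 26.7 and 28.1 CPM in WT and at 55.4 and 20.1 CPM in the deficient-labelled libraries. The groups overlapped (log2 fold change 0.46 with a standard error of 0.39, edgeR adjusted p = 0.664), and without replicate 2 of the label Ms4a4b was called at 1.02 (adjusted p = 0.00438), whereas without replicate 1 it was at -0.44 (adjusted p = 0.420). In the same libraries the sum of 7 T cell genes was 82.2 and 62.5 CPM in WT and 157 and 56.9 CPM in the others, highest where Ms4a4b was highest, and the part of T cell RNA in Ms4a4b was not tested. The MS4A-like channel genes Tmem176a and Tmem176b, which lie outside the cluster, were at 25.4 and 29.8 CPM and at 88.6 and 119 CPM in WT, and at 38.8 and 41.3 CPM and at 136 and 130 CPM in the others. Their log2 fold changes were 0.54 (adjusted p = 0.340) and 0.36 (adjusted p = 0.503).

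Genes that are not MS4A genes shared the cluster. Of 21 neighbours, 11 of them inside the cluster and 10 beside it, 7 were tested and 0 were called by edgeR or DESeq2, with 1 at an unadjusted p under 0.05. This was AW112010, a non-coding RNA next to Ms4a8a on the same strand, from 11047612 to 11055808. It was at 342 and 138 CPM in WT and at 967 and 389 CPM in the deficient-labelled libraries. The groups did not overlap but spread widely within each label (ratio of means 2.83, standard error 0.47 on the log2 scale, adjusted p = 0.242 by edgeR). Without deficient-labelled replicate 2 it was called, at a log2 fold change of 2.01 (adjusted p = 3.56e-05), and without replicate 1 it was at 0.70. Gm8369, also inside the cluster, had a log2 fold change of 0.97 with a standard error of 0.77 with overlapping groups. The protein-coding neighbours beside the cluster that were tested (Tmem109, Prpf19, Ptgdr2, Ccdc86 and Mrpl16) had log2 fold changes between -0.29 and 0.28.

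A list of 15 partner genes held those known to work with MS4A proteins, to share their receptor complexes, or to act on the same cells. The name does not mean that each is known to contact an MS4A protein. Of the 15, 14 were tested, 1 was called as higher by edgeR (0.292% of all genes tested) and 0 as lower. In 8 the deficient-labelled libraries lay above WT without overlap and in 3 below, against 21.4% and 23.0% of all genes tested. The median log2 fold change of the 14 was 0.34. The called gene was Clec7a, which encodes Dectin-1, at 63.0 and 44.8 CPM in WT and at 189 and 133 CPM in the deficient-labelled libraries (log2 fold change 1.58 with a standard error of 0.24, edgeR adjusted p = 0.0349). Its call was lost without WT replicate 2 (1.35, adjusted p = 0.235) and with library totals in place of TMM scaling (1.43, adjusted p = 0.0688). Fcer1g and Tyrobp, the signalling adaptors of Fc receptors and of Trem2, were at 2298 and 2114 CPM and at 1089 and 798 CPM in WT, and at 2879 and 3037 CPM and at 1304 and 1490 CPM in the others (log2 fold changes 0.42 and 0.57, adjusted p = 0.465 and 0.377). Trem2, a lipid receptor of macrophages, was at 427 and 531 CPM in WT and at 251 and 407 CPM in the others (log2 fold change -0.54, adjusted p = 0.433), and without deficient-labelled replicate 2 it was called at -0.93 (adjusted p = 0.0206), whereas without replicate 1 it was at -0.23 (adjusted p = 0.644). Without replicate 1 of that label Fcgr2b and Fcgr3 were called, at 1.05 (adjusted p = 0.00751) and 1.08 (adjusted p = 0.00935). The Fc receptors Fcgr1, Fcgr2b and Fcgr3 had log2 fold changes of 0.54 to 0.66 with all libraries, and without replicate 2 Fcgr2b was at -0.12 and Fcgr3 at 0.08. The kinase Syk was at 0.20, moving to 0.00 without replicate 1 and 0.39 without replicate 2. The growth factor receptor Csf1r was at 0.13, moving to 0.04 without replicate 2 and to -0.02 with library totals in place of TMM scaling. The TGF-beta receptors Tgfbr1 and Tgfbr2 were at -0.59 and -0.40 (edgeR adjusted p = 0.250 and 0.421). Il4ra was at 0.48 and Stat6 at 0.26 (edgeR adjusted p = 0.420 and 0.617). For each of these genes the groups did not overlap in CPM. The glucocorticoid receptor Nr3c1 was at -0.16, and at -0.42 and 0.06 without deficient-labelled replicate 1 and 2. Clec7a was the only partner gene that edgeR called with all libraries. Vsig4, a complement receptor of resident macrophages, had 1 count in each of 2 libraries and was not tested.

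The summed markers of some other cells differed between the labels, and those of others overlapped. Summed over 5 monocyte genes (Ly6c2, Ccr2, Plac8, Vcan and Chil3), the level was 551 and 710 CPM in WT and 1658 and 1150 CPM in the deficient-labelled libraries. In 4 of the 5 the groups did not overlap and were higher in the latter, as in 21.4% of all genes tested. Plac8 had the largest difference of the 5, at 130 and 98.3 CPM in WT and at 483 and 259 CPM in the others (log2 fold change 1.70, edgeR adjusted p = 0.0625). Plac8 was called by DESeq2 (adjusted p = 8.21e-06), as were 1.38% of all genes tested, and by edgeR without the low-count filter (adjusted p = 0.0338). It was not called by edgeR with library totals without TMM (adjusted p = 0.111) or by limma on FPKM (adjusted p = 0.212 to 0.491). Its log2 fold change was 1.18 and 2.08 without deficient-labelled replicate 1 and 2, and 1.93 and 1.51 without WT replicate 1 and 2. Ly6c2, at a log2 fold change of 1.31 (edgeR adjusted p = 0.152), was called by DESeq2 (adjusted p = 0.00310) and without replicate 2 (1.75, adjusted p = 2.14e-06), and was at 0.69 without replicate 1. With the replicate number as a block in edgeR, Plac8 and Ly6c2 were both called, as were 5.61% of all genes tested. That fit treats same-numbered libraries as pairs, which no source states. The sum of 6 neutrophil genes was 90.3 and 109 CPM in WT and 99.0 and 252 CPM in the others, with Camp and Ngp at or below the floor in all 4. Cxcr2 made up 42.8 to 84.0 CPM of these sums and had a log2 fold change of -0.30. Of the 6, 3 (S100a8, S100a9 and Retnlg) were higher in the deficient-labelled libraries without overlap, against 21.4% of all genes tested. Retnlg was at 1.82 and 0 CPM in WT and at 1.92 and 11.3 CPM in the others. Its groups were thus barely apart, and it was not among the genes tested. S100a8 was at 17.4 and 15.6 CPM in WT and at 35.1 and 118 CPM in the others (log2 fold change 2.21, edgeR adjusted p = 0.107), and S100a9 was at 6.66 and 9.38 CPM in WT and at 19.2 and 44.8 CPM in the others (adjusted p = 0.0977). The sum of 4 NK cell genes was 62.2 and 27.7 CPM in WT and 228 and 71.7 CPM in the others. Klrk1 was the largest part of each sum, at 42.8 and 19.2 CPM in WT and at 162 and 59.4 CPM in the others (edgeR adjusted p = 0.173). Of the 4, 2 (Klrk1 and Klrb1c) were higher without overlap, against 21.4% of all genes tested. Klrb1c was at 0.808 to 4.26 CPM. Prf1 overlapped, as did Ncr1, at 0.411 to 3.83 CPM. B cell genes were at 46.3 to 55.4 CPM in all libraries, almost wholly through Cd79b, and Pax5 had no value. Mast cell and basophil genes did not exceed 0.404 CPM, and Mcpt8 and Ms4a2 had no value. Dendritic cell genes were at 49.0 to 64.2 CPM in WT and at 51.6 to 99.0 CPM in the others. Only Flt3 of these 5 genes did not overlap, at 3.84 and 5.42 CPM in WT and at 1.28 and 0.205 CPM in the others. Fibroblast genes were at 2.42 to 3.49 CPM in all. Melanoma genes were at 736 to 780 CPM in WT and at 581 to 788 CPM in the others. Of these 5, 3 (Mlana, Dct and Tyrp1) were lower in the deficient-labelled libraries without overlap, against 23.0% of all genes tested. Tyr, the largest part of these sums at 375 to 496 CPM, overlapped. Endothelial genes summed to 42.0 and 27.1 CPM in the deficient-labelled libraries, and both WT sums, the lower at 17.7 CPM, lay below these. Pecam1 was at 16.0 and 5.63 CPM in WT and at 36.0 and 22.0 CPM in the others (log2 fold change 1.42, edgeR adjusted p = 0.228). Kdr overlapped, at 2.83 and 9.17 CPM in WT and at 5.32 and 4.93 CPM in the others (log2 fold change -0.22). Cdh5 overlapped as well, at 0.202 and 2.92 CPM in WT and at 0.639 and 0.205 CPM in the others. The part of these cells in the values of Ms4a8a, Ms4a4c and the Ms4a6 genes was not tested.

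Genes with the pattern most like that of each member over the 4 libraries were found by the smallest root mean square distance of centred log2 CPM among the 9113 tested genes whose mean log2 CPM reached 3. For Ms4a8a these were Fpr1, a receptor for bacterial formyl peptides, at a distance of 0.17, and Ly6i, a surface protein of the Ly6 family, at 0.25. Fpr1 was at 14.3 and 13.3 CPM in WT and at 70.7 and 79.5 CPM in the deficient-labelled libraries. For Ms4a4c they were Rasgrp1 and Rab19, at 0.033 and 0.037. For Ms4a4a they were Nupr1 and Vamp8, at 0.025 and 0.028, and for Ms4a6d Prkab1 and Plin2, the coat protein of lipid droplets, at 0.014 and 0.018. Uckl1 and Cnnm4 were closest to Ms4a6b, Dusp12 and Lrrc41 to Ms4a6c, and Tpra1 and Pltp to Ms4a7, at 0.0072 to 0.018. The nearest gene of Ms4a8a was farther away than that of any other member. The distance was not scaled to the size of a gene's difference, which was largest for Ms4a8a, so nothing further is read from it.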

How the data were processed

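RNA of TAMs was analysed in 2 WT and 2 deficient-labelled libraries, grouped by GEO's labels. Per the labels and the study's methods, the authors aligned reads with Bowtie to GRCm38/mm10 and ran RSEM. The deposited tables hold an expected count per gene (not normalized, 76.6% to 77.7% of them whole), the authors' FPKM, scaled to gene length and library total, and a transcript length. Read length and strand are not given in the sources used here. Of 16739 genes, 16698 matched a symbol by Entrez identifier. The members and gene lists were chosen with earlier results of these data known. The study's peritoneal macrophage and ChIP experiments were not used here.

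Expected counts were rounded, filtered by filterByExpr (11302 genes kept), scaled by TMM and tested with the quasi-likelihood F test of edgeR 4.0.16 under R 4.3.3, with Benjamini-Hochberg adjustment over every gene tested. The standard error is the size of the log2 fold change over the square root of F. A gene was called at a false discovery rate under 0.05 and a change of more than 1.5-fold, which are the study's thresholds. The p-values measure the spread between these libraries, which may be technical. At 2 against 2, no exact two-sided permutation test can go below p = 0.333.

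The results were recomputed with a block for the replicate number, with DESeq2 1.42.0, with library totals without TMM, without the filter, with each library left out, and with limma 3.58.1 on FPKM after adding 1 or 0.1 and taking log2 (genes at 1 FPKM or more in 2 libraries, or all genes). The WT against deficient-labelled comparison was simulated on 11302 genes, of which 11102 passed the filter. The edgeR fit found 89.5% of 200 genes given a 4-fold change and made 9 false calls. The simulated spread followed the trend fitted over all genes, without added differences of single genes or libraries. These rates therefore need not hold for the real libraries. Named genes were the members, other MS4A genes with reads, the partner list, markers and the 2 genes nearest each member in pattern. Neighbours that were not called were named after their values were seen. Of the monocyte list, 1 marker gene is not reported here.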

Additional observations from a re-analysis of the deposited data

How the results depend on the processing

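Ms4a8a, Ms4a4a, Ms4a4c, Ms4a6b, Ms4a6c and Ms4a6d had log2 fold changes above 0 in all 11 alternatives, between 2.37 and 2.88 for Ms4a8a, and Ms4a7 was above 0 in 1 of them. The number of called genes was 634 (425 of them higher) with the replicate block, 156 with DESeq2, 23 (14 higher) with log2(FPKM + 1), 20 (11 higher) with log2(FPKM + 0.1), 0 with limma on log2(FPKM + 1) over all genes (1636 at an unadjusted p under 0.05), and 25 to 652 with each library left out (25 without WT replicate 2, 66 without WT replicate 1, 405 without deficient-labelled replicate 1 and 652 without replicate 2). Of the 7 members, 2 were called with the replicate block, 2 with DESeq2, 0 with log2(FPKM + 1) over all genes, and 1 to 3 with each library left out. Of the partner genes, 0 were called with library totals without TMM, with log2(FPKM + 1), with log2(FPKM + 0.1) and over all genes on the FPKM scale (3 to 4 at an unadjusted p under 0.05 in each), and 0 to 3 with each library left out. Of the neighbours, 1 (AW112010) was called with the replicate block, and 0 to 1 of the neighbours and of the other MS4A genes with each library left out. The median log2 fold change of the members was 0.38 with library totals without TMM and 0.38 with each of the 3 FPKM fits, and 0.43 to 0.64 with each library left out. Library totals without TMM moved the median of all genes to -0.15 and log2(FPKM + 1) to -0.13, so that the members' difference from it changed little. The cause of these moves was not tested. Deviations of the same-numbered libraries correlated at 0.165, which with 2 pairs does not show that the numbers pair the mice. Depth limits Ms4a8a in WT, at 17 and 19 counts, and the family genes at or below 4 counts.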
